A study of Mus musculus with 12 samples.

Results

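The 10 genes described here carry glucose into the cell, break it down to pyruvate, turn pyruvate into lactate and carry lactate out: Slc2a1, Hk2, Pfkl, Pfkp, Aldoa, Pgk1, Eno1, Pkm, Ldha and Slc16a3. They were taken by symbol from a table of raw counts for 52550 mouse Ensembl genes. Aldoa matched 2 Ensembl genes, so the 10 symbols gave 11 rows, all of which passed the low-count filter that left 17700 genes for testing. Each row is described across 12 RNA-seq libraries in 4 groups of 3. All animals were labelled wild type. M scaffold cells came from the muscle layers of the mouse intestine and were kept for 28 days on an electrospun gelatin scaffold in M medium. M medium lists no serum and is Advanced DMEM/F-12 with N2, B27 without vitamin A, HEPES, GlutaMAX, N-acetylcysteine at 1 mM, Noggin at 100 ng/ml, R-spondin1 at 1 µg/ml and the ROCK inhibitor Y27632 at 10 µM. M plate cells had the same medium and time on a well plate. P plate cells were kept for 28 days on a well plate in P medium, DMEM with 10% FBS, and both media held the antibiotic mix ABAM. Ages and strains are not given in the labels. Strips were native intestinal muscle with no culture, although their labels repeat the cell type and time point of the cultures. The medium, the serum and the added factors differ together between M and P, so none of them can be told apart from the others.

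Glycolysis splits glucose into pyruvate through a chain of cytosolic enzymes, and cells that ferment turn the pyruvate into lactate and export it. Several steps have isozymes from separate genes: Slc2a4, Pfkm and Eno3 are the forms best known from muscle, Ldhb is the lactate dehydrogenase subunit typical of heart, and Slc2a1, Hk2, Pfkl, Eno1, Ldha and Slc16a3 are known as targets of hypoxia-inducible factors in many cell types.

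Gene counts per library ran between 21396485 and 116643512, with the deepest library M scaffold replicate 3. Smooth muscle markers had counts for 10 of 10 genes in every group, and their summed level was 5194 to 14530 CPM (counts scaled to library size) in M scaffold, 3968 to 6701 in M plate, 5944 to 11597 in P plate and 40927 to 43491 in strips. In bulk libraries fewer cells of a type and less RNA per cell cannot be told apart. M scaffold replicate 3 and P plate replicate 1 stood apart from their groups, the first in the genes described here and the second with a summed macrophage marker level of 20299 CPM against 3717 and 2224 in P plate replicates 2 and 3. Calls of the 10 genes and of the genes of 5 other pathway lists were repeated without each of these libraries; for the lists this was chosen after seeing the data.

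Of the 10 symbols, 9 had the order P plate, M scaffold, M plate, strips in their mean levels, highest first, and Pfkp alone had another order. Levels are CPM scaled by TMM and are compared between genes only per kilobase of annotated exon. Aldoa, which makes the aldolase of most tissues, had the highest level per kilobase in every group, at 363 ± 160.2 CPM per kb in M scaffold, 237 ± 42.1 in M plate, 527 ± 16.2 in P plate and 188 ± 10.0 in strips (SD, n = 3). Ldha was second in every group by the same measure. Per kilobase of the longest transcript, Ldha was second in M scaffold only, and Pkm was second in M plate, P plate and strips. The rank of Pgk1 is uncertain, because 53.9% of its 50-base stretches also occur in other genes, nearly all of them in the retrogene Pgk1-rs7, and reads with more than 1 alignment were left uncounted. Eno1 and Pkm share 26.0% and 25.8% of such stretches with other genes, Ldha 9.26% and the main Aldoa gene 6.43%, and no other member shares more than the 5.10% of Pfkp, whose annotated span overlaps Pitrm1 on the opposite strand.

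**Figure D1:**
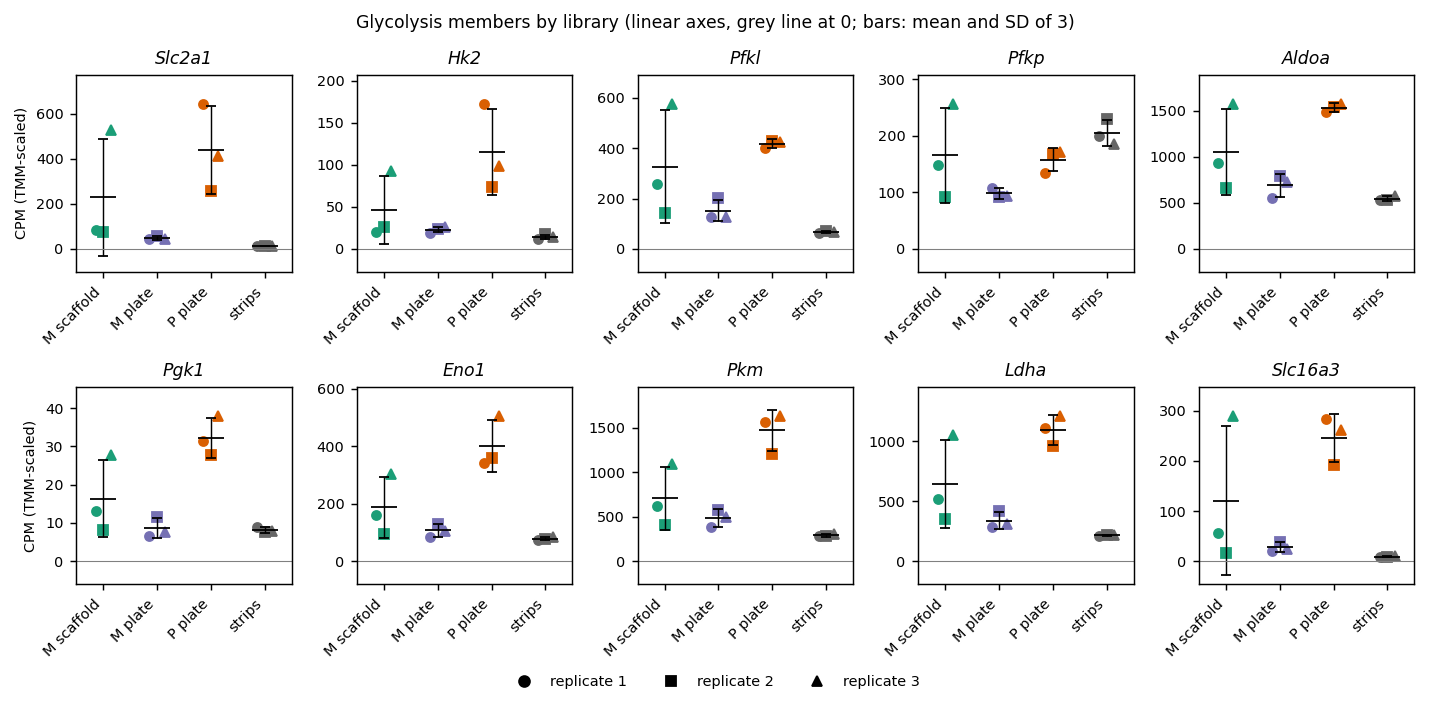
TMM-scaled CPM (vertical axes, linear) of the 10 genes in M scaffold, M plate, P plate and strips; each point is a library, shaped by replicate number, and bars give the mean and SD of 3. M scaffold replicate 3 is the highest library of its group in every panel, and the Pfkp panel is the only one in which strips have the highest mean.

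RefSeq windows of 300 bases (250 before and 50 after a transcript start, build GRCm38.p6) were read for all 10 symbols, and 16 windows were found. Each was searched on both strands for ACGTG and for GCGTG, the forms of the core of the hypoxia response element. ACGTG was present in 7 of the 10 genes, while 21.8% of all 27025 genes with a window hold it, and at 2 or more places in 5 of the 10, against 3.09% of all genes. A gene with more windows has more chances of a match, and all 27025 genes had 32851 windows. By window, ACGTG was in 8 of the 16, against 19.6% of all windows. GCGTG was in 8 of the 16 windows and in 32.4% of all windows. The 16 windows are not all separate: 2 overlapping Aldoa windows hold the same ACGTG, and 2 overlapping Eno1 windows hold the same GCGTG places. A match of 5 letters is a description of the window and no evidence of binding. The 5 windows printed here are those of the 2 transporters with the widest range across groups, of Ldha, whose window holds 3 separate places, of Pgk1 with 2, and of Pfkp, whose levels ran in another order and whose window has no ACGTG. Capitals mark ACGTG on either strand (read as CACGT on the printed strand where it lies on the other one), and each line runs 5′ to 3′ on the strand of the gene.
Slc2a1 (chr4:119108495-119108794, plus strand): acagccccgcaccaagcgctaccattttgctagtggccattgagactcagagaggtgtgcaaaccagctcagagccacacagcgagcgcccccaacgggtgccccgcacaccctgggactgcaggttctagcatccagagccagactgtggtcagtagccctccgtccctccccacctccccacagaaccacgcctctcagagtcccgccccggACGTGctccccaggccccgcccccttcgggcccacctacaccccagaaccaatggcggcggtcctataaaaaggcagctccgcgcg
Slc16a3 (chr11:120948817-120949116, plus strand): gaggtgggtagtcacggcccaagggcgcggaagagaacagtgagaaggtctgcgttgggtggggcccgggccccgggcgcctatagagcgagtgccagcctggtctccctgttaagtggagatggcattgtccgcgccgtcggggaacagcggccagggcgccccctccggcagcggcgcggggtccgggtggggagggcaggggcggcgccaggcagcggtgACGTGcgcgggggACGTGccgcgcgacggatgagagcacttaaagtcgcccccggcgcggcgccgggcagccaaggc
Ldha (chr7:46845554-46845853, plus strand): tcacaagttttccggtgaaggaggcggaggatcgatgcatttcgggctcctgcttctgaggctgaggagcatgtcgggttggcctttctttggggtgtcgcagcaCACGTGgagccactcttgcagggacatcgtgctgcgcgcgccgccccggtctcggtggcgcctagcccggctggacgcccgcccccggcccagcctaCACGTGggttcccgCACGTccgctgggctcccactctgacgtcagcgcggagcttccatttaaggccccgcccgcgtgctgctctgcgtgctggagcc
Pgk1 (chrX:106186850-106187149, plus strand): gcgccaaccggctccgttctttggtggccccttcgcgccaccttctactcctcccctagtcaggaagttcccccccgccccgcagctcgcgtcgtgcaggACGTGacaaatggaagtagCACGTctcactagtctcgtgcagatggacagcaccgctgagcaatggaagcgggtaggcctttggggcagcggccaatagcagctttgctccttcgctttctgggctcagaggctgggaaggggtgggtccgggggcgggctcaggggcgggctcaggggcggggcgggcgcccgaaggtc
Pfkp (chr13:6648722-6649021, minus strand): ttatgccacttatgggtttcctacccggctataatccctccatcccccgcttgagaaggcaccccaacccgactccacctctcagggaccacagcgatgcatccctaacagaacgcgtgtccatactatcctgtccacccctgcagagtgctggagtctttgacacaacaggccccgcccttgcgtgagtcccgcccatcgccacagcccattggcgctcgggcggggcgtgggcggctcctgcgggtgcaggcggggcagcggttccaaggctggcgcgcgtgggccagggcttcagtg
The windows of Eno1 and Pfkl also held no ACGTG, and both genes followed the common order. The Pfkp window held GCGTG at 4 places. Any link between these matches and the levels was not tested.

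Transport of glucose into the cell showed the widest differences. Slc2a1 (ENSMUSG00000028645, GRCm38 chromosome 4, 119108711 to 119137983, plus strand) encodes GLUT1, the basal glucose transporter of most cells. It stood at 84.8, 73.9 and 529.7 CPM in M scaffold replicates 1 to 3, 42.1, 59.2 and 46.0 in M plate, 645, 257 and 411 in P plate, and 13.9, 14.1 and 15.1 in strips. P plate libraries lay above all M plate and strips libraries, and M scaffold replicate 3 lay among the P plate libraries while replicates 1 and 2 lay between the M plate and P plate ranges.

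The first steps inside the cell trap glucose and commit it to breakdown. Hk2 (ENSMUSG00000000628, chromosome 6, 82725025 to 82774454, minus strand), the inducible hexokinase, stood at 20.5, 26.5 and 93.0 CPM in M scaffold, 19.4, 23.4 and 26.0 in M plate, 173, 74.1 and 98.3 in P plate, and 11.7, 17.3 and 13.6 in strips. The M scaffold and M plate libraries overlapped, and replicate 3 of M scaffold reached the P plate range. Pfkl (ENSMUSG00000020277, chromosome 10, 77986947 to 78010083, minus strand), the liver-type phosphofructokinase, stood at 259, 144 and 577 CPM in M scaffold, 126, 201 and 128 in M plate, 399.5, 429 and 426 in P plate, and 62.2, 69.7 and 68.7 in strips. Strips had the lowest 3 values, and M scaffold replicate 3 exceeded every P plate library.

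Pfkp (ENSMUSG00000021196, chromosome 13, 6579768 to 6648777, minus strand), the platelet-type phosphofructokinase, ran the other way at the tissue end. It stood at 148, 91.5 and 257 CPM in M scaffold, 108, 92.4 and 93.3 in M plate, 134, 168 and 171 in P plate, and 199, 229 and 185 in strips. Strips lay above every plate library, and of the M scaffold libraries only replicate 3 was higher than any of them. The reads of its neighbour Pitrm1, which overlaps it on the other strand, came to 40.1% of the Pfkp count. Of the 50-base stretches of Pfkp, 5.10% also occur in Pitrm1. No source used here gives the strand setting of the counting. The Pfkp level may thus hold reads of both genes, or lack reads that were set aside as ambiguous.

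Aldoa (ENSMUSG00000030695, chromosome 7, 126795234 to 126800751, minus strand) stood at 935, 663 and 1572 CPM in M scaffold, 552, 789 and 726 in M plate, 1484, 1542 and 1577 in P plate, and 533, 526 and 579.6 in strips. Its P plate libraries were the most alike of any member's, with an SD of 3.07% of the mean. The second Ensembl gene with this symbol (ENSMUSG00000114515, chromosome 7, 126800790 to 126809108, minus strand) had 143 counts in all 12 libraries together against 558437 for the first. Its mean was 0.156 CPM in M scaffold, 0.170 in M plate, 0.0710 in P plate and 0.547 in strips, and its span overlaps Fam57b on the opposite strand, so its values carry little weight.

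The later steps yield ATP. Pgk1 (ENSMUSG00000062070, chromosome X, 106187100 to 106203699, plus strand), the kinase of the first ATP-forming step, stood at 13.1, 8.20 and 27.7 CPM in M scaffold, 6.56, 11.6 and 7.75 in M plate, 31.3, 27.7 and 38.0 in P plate, and 8.93, 7.55 and 7.80 in strips. M plate and strips could not be separated by Pgk1. Eno1 (ENSMUSG00000063524, chromosome 4, 150236721 to 150248879, plus strand), the ubiquitous enolase, stood at 161, 95.4 and 305 CPM in M scaffold, 85.1, 130.5 and 106 in M plate, 340.3, 361 and 506 in P plate, and 72.4, 77.9 and 83.6 in strips. P plate lay above all other libraries for Eno1 and strips lay below them. Pkm (ENSMUSG00000032294, chromosome 9, 59656368 to 59679375, plus strand), the pyruvate kinase of muscle and proliferating cells, stood at 619.8, 408 and 1096 CPM in M scaffold, 381, 578 and 502 in M plate, 1565, 1207 and 1631 in P plate, and 278, 286 and 306 in strips. Here too P plate was above and strips below all other libraries. The table gives no split between the M1 and M2 splice forms of Pkm.

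The last members make and export lactate. Ldha (ENSMUSG00000063229, chromosome 7, 46841475 to 46855627, plus strand), the lactate dehydrogenase subunit that favours lactate, stood at 518, 352 and 1053 CPM in M scaffold, 282, 415 and 314 in M plate, 1108, 959.6 and 1213 in P plate, and 210.5, 219.5 and 216 in strips. Among the cultures, only M scaffold replicate 3 came into the P plate range. Slc16a3 (ENSMUSG00000025161, chromosome 11, 120948480 to 120960868, plus strand), the lactate exporter MCT4, stood at 57.1, 15.8 and 289.7 CPM in M scaffold, 19.9, 38.5 and 25.1 in M plate, 283, 192 and 262 in P plate, and 9.31, 8.13 and 10.0 in strips. M scaffold replicate 2 was below every M plate library, and replicate 3 was above every P plate library, so the highest M scaffold value was 18.3 times the lowest.

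M plate and P plate differed in medium on the same flat surface. Uptake, breakdown and export genes were lower in M plate: 9 of the 11 rows fell, none rose, and the median log2 fold change was -1.70, while the median over all 17700 genes was -0.00436. Among all genes 10.6% were called lower and 14.3% higher. A gene was called at a Benjamini-Hochberg adjusted p under 0.05 in edgeR's quasi-likelihood test. The 2 transporters fell most, Slc2a1 by 3.16 ± 0.70 (SE) on the log2 scale (edgeR adjusted p = 0.00866) while Slc16a3 fell by 3.14 ± 0.81 (adjusted p = 0.0179). Their M plate means were 49.1 ± 8.94 and 27.8 ± 9.59 CPM, against P plate means of 438 ± 195 and 246 ± 47.3 CPM (SD, n = 3).

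Of the enzymes, Hk2 fell by 2.33 ± 0.53 (adjusted p = 0.0103), Eno1 fell by 1.91 ± 0.36 (0.00362) and Pgk1 fell by 1.90 ± 0.39 (0.00554). Ldha fell by 1.70 ± 0.34 (adjusted p = 0.00482), Pkm fell by 1.59 ± 0.31 (0.00474), Pfkl fell by 1.46 ± 0.40 (0.0235) and Aldoa fell by 1.15 ± 0.27 (0.0116). Pfkp did not pass, with a log2 fold change of -0.69 ± 0.29 (adjusted p = 0.113), although its groups did not overlap. No library of M plate reached the P plate range in 10 of the 11 rows, against 19.3% of all genes that were lower with no overlap. Calls were kept without any single library for 6 of the 9. Pfkl was lost without M plate replicate 1, M plate replicate 3 or P plate replicate 3 (adjusted p = 0.0912, 0.0803 and 0.0558), Slc16a3 without M plate replicate 1 or 3 (0.0752 and 0.0619), and Aldoa without M plate replicate 1 (0.0560). Without P plate replicate 1, the library with the highest macrophage markers, 9 were again lower. Without P plate replicate 2 the second Aldoa gene passed as higher, both here (log2 fold change 2.41, adjusted p = 0.0230) and in M scaffold against P plate (2.45, 0.0210).

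Cell type markers moved with this comparison as well. Endothelial markers rose in 8 of 9 genes, with a summed level of 1757 to 2147 CPM in M plate and 21.2 to 58.2 in P plate, enteric neuron markers rose in 6 of 8, enteric glia markers in 5 of 6 and fibroblast markers in 5 of 8. Smooth muscle markers fell in 3 of 10 and rose in 1, with 3968 to 6701 CPM in M plate and 5944 to 11597 in P plate. Macrophage markers were called in 0 of 10 genes, at 3685 to 4456 CPM in M plate and 2224 to 20299 in P plate, and proliferation markers in 0 of 7. The part of these cell types in the lower glycolytic levels was not tested.

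**Figure D2:**
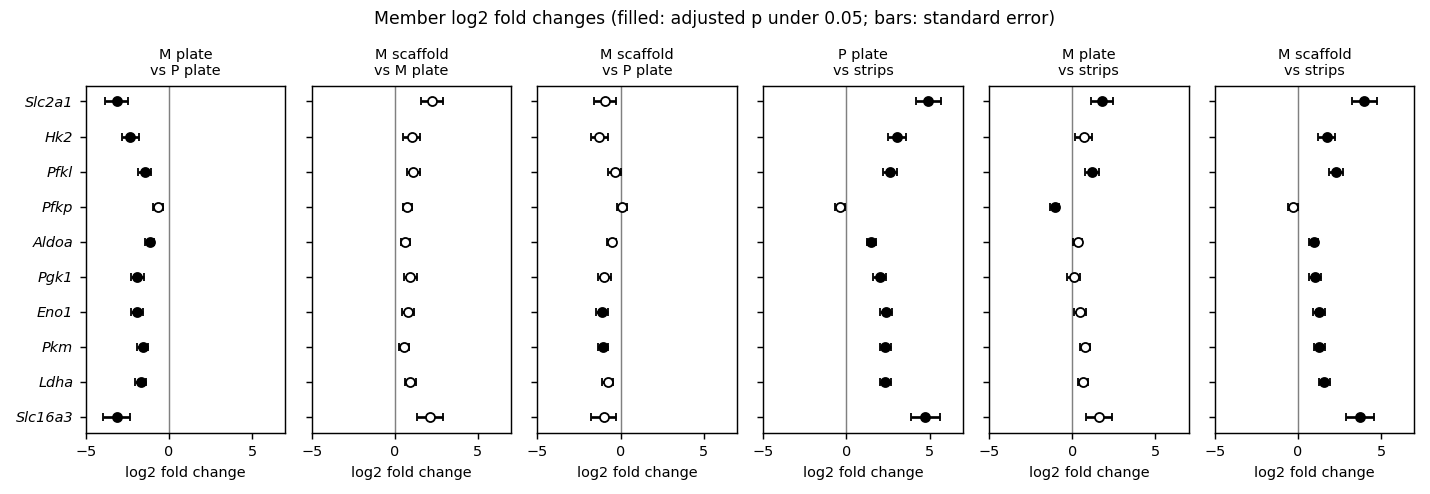
Log2 fold changes (horizontal axes, with standard errors as bars) of the 10 main gene rows in 6 comparisons; filled points passed the adjusted p threshold. In the leftmost panel 9 points are filled on the negative side, in the second none is filled, and Pfkp is on the negative side in every comparison with strips.

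Of 20 further glycolysis and transport genes 3 fell and 1 rose in M plate relative to P plate. Pgam1 and Gapdh, enzymes on either side of Pgk1, had log2 fold changes of -1.85 ± 0.36 (adjusted p = 0.00426) and -1.55 ± 0.34 (0.00807), while Slc2a4, the insulin-responsive transporter GLUT4, rose by 2.71 ± 0.51 (0.00384). Of 13 regulators of glycolytic flux 3 rose and 2 fell. Txnip and Arrdc4, arrestins that lower glucose uptake, rose by 3.18 ± 0.43 (adjusted p = 0.000560) and 2.34 ± 0.62 (0.0199), and Pfkfb3, which makes the activator of phosphofructokinase, fell by 1.63 ± 0.35 (0.00710). Of 20 hypoxia genes outside glycolysis 5 fell and none rose, with Vegfa, the endothelial growth factor, at -3.26 ± 0.68 (adjusted p = 0.00638), Bnip3, a mitophagy receptor, at -2.62 ± 0.69 (0.0203) and Ero1l, an oxidase of protein folding, at -2.56 ± 0.79 (0.0375). Without P plate replicate 1 the log2 fold changes of Txnip and Arrdc4 were 3.85 and 3.797, and Ero1l no longer passed (adjusted p = 0.0656).

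Of 21 genes of pyruvate entry and the citric acid cycle 2 fell, Pcx (pyruvate carboxylase) with a log2 fold change of -0.70 ± 0.19 and Dlat (a pyruvate dehydrogenase subunit) with -0.64 ± 0.10. Of 7 pentose phosphate genes 4 fell and 1 rose, among them Taldo1 (transaldolase), which fell by 0.93 ± 0.16 (adjusted p = 0.00243), Pgd (phosphogluconate dehydrogenase), which fell by 0.90 ± 0.26 (0.0314), and Rpia (ribose-5-phosphate isomerase), which rose by 0.83 ± 0.15 (0.00289). Without P plate replicate 1 only 2 pentose phosphate genes were lower, Pgd not among them (adjusted p = 0.0626), and 2 of the further glycolysis genes were higher in place of 1. The median log2 fold change was -0.31 in the further glycolysis genes, 0.13 in the regulators, -0.92 in the hypoxia genes, -0.17 in the citric acid cycle genes and -0.47 in the pentose phosphate genes.

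M scaffold and M plate differed in support, an electrospun gelatin scaffold or a flat well plate, with the medium held the same. The material and the shape of the support differ together, so they cannot be told apart. None of the 11 rows was called by edgeR, although all 11 had a positive log2 fold change, with a median of 0.93. Among all genes 1.53% were called higher and 1.64% lower. At an unadjusted p under 0.05 the test gave 8 of the 11 rows, all higher, against 11.5% of all genes. Slc2a1 had 229 ± 260.1 CPM in M scaffold and 49.1 ± 8.94 CPM in M plate, a log2 fold change of 2.23 ± 0.67 (adjusted p = 0.0933), and Slc16a3 had 121 ± 148 and 27.8 ± 9.59 CPM, a log2 fold change of 2.12 ± 0.77 (adjusted p = 0.150). DESeq2 called both, at adjusted p = 0.00883 for Slc2a1 and 0.0355 for Slc16a3. Slc2a1 was the only row in which every M scaffold library lay above every M plate library, as did 15.9% of all genes.

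Replicate 3 set the size of these differences. It was the highest M scaffold library in 11 of 11 rows, against 38.6% of all genes, and at least 2-fold above the mean of the other 2 in 10 of 11, against 6.59% of all genes. Replicate 2 was the lowest in 10 of 11 rows, against 30.4% of all genes. Set against the M plate library of the same number, M scaffold was higher in 10 of 11 rows for replicate 1, 2 of 11 for replicate 2 and 11 of 11 for replicate 3. For Slc16a3 these log2 ratios were 1.52, -1.28 and 3.53, and for Ldha 0.88, -0.24 and 1.75. Without replicate 3 no row was called, and the log2 fold change was 0.69 for Slc2a1 and 0.39 for Slc16a3. Without replicate 2, Pfkl and Pfkp (adjusted p = 0.0439 for both) and Slc16a3 (0.0438) were higher in M scaffold. Same-numbered libraries of these 2 groups deviated together, and in a fit of these 6 libraries blocked by replicate number again none of the rows was called, while 787 genes were called higher and 931 lower in place of 271 and 291.

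**Figure D3:**
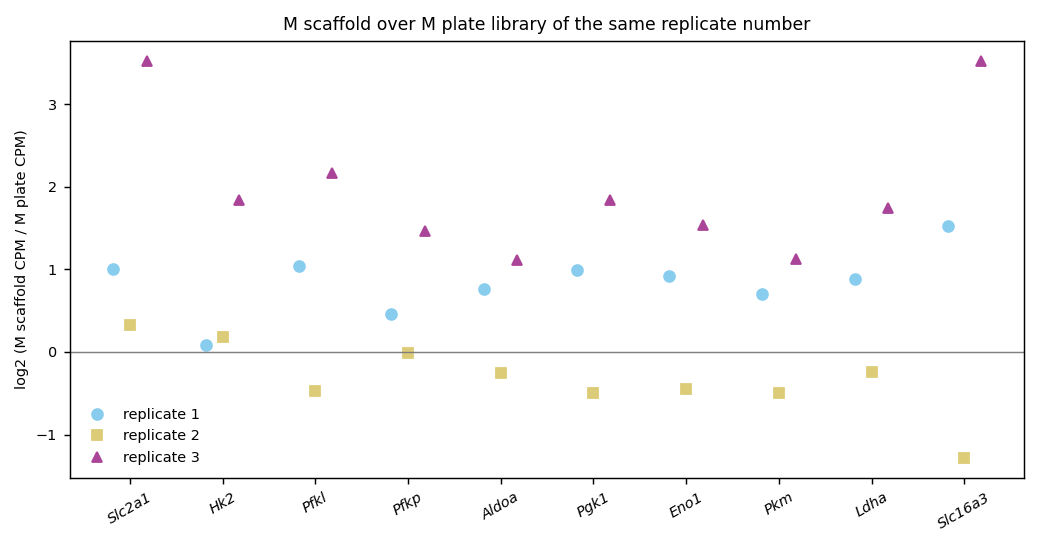
Log2 ratio of M scaffold to M plate CPM (vertical axis) in libraries of the same replicate number, for each of the 10 genes; the horizontal line marks equal levels. Replicate 3 (triangles) is above the line for every gene and is the highest point of each, replicate 1 (circles) is above it as well, and replicate 2 (squares) is above it for Slc2a1 and Hk2.

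Other genes moved with replicate 3. The summed level of the 20 hypoxia genes outside glycolysis was 1881, 2069 and 4829 CPM in M scaffold replicates 1 to 3, with replicate 3 highest in 16 of 20, and that of the further glycolysis genes was 1701, 1277 and 2952 CPM. Enteric glia markers came to 259, 341 and 624 CPM. Endothelial markers ran the other way, at 1586, 1057 and 237 CPM, with replicate 3 lowest in 9 of 9 genes. Macrophage markers came to 2240, 1796 and 4151 CPM. The citric acid cycle genes stayed close together, at 2388, 2205 and 2198 CPM. Between M scaffold and M plate as groups, 2 of 6 glia markers and 1 of 8 neuron markers rose and 1 of 9 endothelial markers fell, while no smooth muscle, macrophage, fibroblast or proliferation marker was called. Replicate 3 was also the deepest library, and the part of depth, hypoxia genes or cell types in its glycolytic levels was not tested.

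Against P plate, M scaffold differed in few members. Eno1 fell by 1.10 ± 0.35 (adjusted p = 0.0427) and Pkm fell by 1.05 ± 0.31 (0.0314), so 2 of 11 rows were lower and none higher, against 9.61% and 15.1% of all genes. The median log2 fold change was -0.93. Libraries did not overlap in 3 rows, Pgk1, Eno1 and Pkm, as in 15.0% of all genes that were lower, and for Pgk1 the highest M scaffold and the lowest P plate library both rounded to 27.7 CPM. Pfkp stood closest to equality, with a log2 fold change of 0.07 ± 0.29 (adjusted p = 0.889). The result turned on M scaffold replicate 3: without it 9 of 11 rows were lower, with log2 fold changes of -2.75 for Slc16a3 (adjusted p = 0.00397), -2.46 for Slc2a1 (0.000773) and -2.29 for Hk2 (0.00147). The 9.61% of all genes is from the fit with every library, and the share without replicate 3 is not given here. Replicate 3 also stood apart from its group in these same genes. Neither of the 2 calls was kept without each library. Eno1 was lost without M scaffold replicate 1 or 2 or P plate replicate 2 or 3 (adjusted p = 0.133, 0.103, 0.0597 and 0.134), and Pkm without M scaffold replicate 1 or 2 or P plate replicate 1 or 3 (0.106, 0.0850, 0.0576 and 0.0854). Endothelial markers rose in 8 of 9 genes here too, neuron markers in 8 of 8, glia markers in 6 of 6 and fibroblast markers in 7 of 8, and their part in the result was not tested. This comparison shares its P plate libraries with the one on medium and its M scaffold libraries with the one on support.

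In the same comparison Slc2a4 rose by 3.93 ± 0.54 (adjusted p = 0.000449), Txnip by 3.29 ± 0.44 (0.000367), Arrdc4 by 2.66 ± 0.62 (0.0108) and Pdk4, a kinase that blocks pyruvate dehydrogenase, by 2.31 ± 0.31 (0.000394). Of the 13 regulators 5 rose and 2 fell. Of the 20 further glycolysis genes 2 rose and 1 fell: Slc2a4 rose as above, Ldhb rose by 0.89 ± 0.20 (adjusted p = 0.00953), and Gapdh fell by 1.06 ± 0.33 (0.0413). Of the 7 pentose phosphate genes 1 rose and 3 fell, with Taldo1 at -0.98 ± 0.16 and Rpia at 0.53 ± 0.15, and of the 21 citric acid cycle genes only Dlat was called, at -0.39 ± 0.10. Of the 20 hypoxia genes only Hif1a was called, and it fell by 1.09 ± 0.35 (0.0448). Without M scaffold replicate 3, 8 hypoxia genes and 4 further glycolysis genes were lower, while Hif1a and Rpia no longer passed (adjusted p = 0.112 and 0.0746). Without P plate replicate 1 the calls of Gapdh (adjusted p = 0.0724), Hif1a (0.160) and Dlat (0.0513) were lost, and 1 pentose phosphate gene and 1 regulator were lower, with 1 citric acid cycle gene higher. Txnip and Arrdc4 then stood at log2 fold changes of 3.99 and 4.14. Between M scaffold and M plate the 5 lists gave only 2 calls, Pdk4 at 1.44 ± 0.30 (adjusted p = 0.0361) and Egln3, an oxygen-sensing prolyl hydroxylase, at 2.38 ± 0.54 (0.0456). Without M scaffold replicate 3 both were lost, Pdk4 at 1.203 (adjusted p = 0.0920) and Egln3 at 1.41 (0.0820), and 1 hypoxia gene was lower.

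Against strips, P plate had higher levels of all members but Pfkp and the second Aldoa gene. Of the 11 rows 9 rose and 1 fell, with a median log2 fold change of 2.34, while 30.5% of all genes were called higher and 32.7% lower. Slc2a1 stood at 438 ± 195 CPM in P plate and 14.4 ± 0.634 CPM in strips, a log2 fold change of 4.93 ± 0.76 (adjusted p = 0.000262). Slc16a3 stood at 246 ± 47.3 CPM in P plate and 9.15 ± 0.954 in strips, a log2 fold change of 4.74 ± 0.87 (adjusted p = 0.000824). Hk2 rose by 3.02 ± 0.55, Pfkl by 2.65 ± 0.42 and Aldoa, the smallest rise, by 1.49 ± 0.27, with adjusted p = 0.000758, 0.000305 and 0.000805. Pgk1, Eno1, Pkm and Ldha rose by 2.00 to 2.37 on the log2 scale.

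The fall was that of the sparse second Aldoa gene, and Pfkp did not pass (log2 fold change -0.37 ± 0.29, adjusted p = 0.284). All 10 calls were kept without each of the 6 libraries and under each other setting tried. Libraries did not overlap for the 9 rows that rose, as for 31.7% of all genes that were higher. With library totals in place of TMM the median of all genes stood at -0.30, against -0.03 with TMM, and 33.4% of the calls were higher, against 48.2% with TMM, while 9 members were again higher.

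M plate stood nearer to strips. Slc2a1 rose by 1.77 ± 0.67 (adjusted p = 0.0431) and Pfkl by 1.18 ± 0.40 (0.0271), Pfkp fell by 1.06 ± 0.29 (0.0110) and the second Aldoa gene fell by 1.67 ± 0.48 (0.0132). That made 2 of 11 rows higher and 2 lower, against 26.5% and 28.4% of all genes, with a median log2 fold change of 0.65. Pfkp averaged 98.0 ± 8.94 CPM in M plate and 204 ± 22.7 CPM in strips, and its call was the one kept without each library. Slc2a1 passed in none of the 6 fits with a library left out (adjusted p = 0.0668 to 0.110), and Pfkl was lost without M plate replicate 2 or any of the strips (0.0662 to 0.109). The second Aldoa gene was lost without M plate replicate 3 (0.0532). Libraries did not overlap in 7 rows that were higher, as for 36.2% of all genes. With only these 6 libraries in the fit 7 rows were higher, and with library totals none was, while Pgk1 had a log2 fold change of -0.13 there and 0.09 with TMM. Library totals put the median of all genes at -0.23, against -0.01 with TMM. They also put the share of calls that were higher at 33.9%, against 48.3% with TMM.

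M scaffold against strips lay in between. Of the 11 rows 9 rose and 1 fell, with a median of 1.29, against 24.5% of all genes called higher and 27.6% lower. Slc2a1 rose by 3.998 ± 0.73 (adjusted p = 0.00124), Slc16a3 by 3.72 ± 0.83 (0.00392) and Pfkl by 2.29 ± 0.41 (0.00117). The rises of Hk2, Ldha, Pkm, Eno1, Pgk1 and Aldoa ran between 0.95 and 1.72. Without M scaffold replicate 3, 7 rows were higher and 2 lower: Hk2 and Pgk1 no longer passed (adjusted p = 0.0874 and 0.243), and Pfkp fell by 0.76 (0.0145) where it had stood at -0.30 ± 0.29 (0.404). Hk2 was also lost without strips replicate 1 or 3 (0.0684 and 0.0580) and Pgk1 without any of the 3 strips (0.0840 to 0.111). Libraries did not overlap in 8 rows that were higher, as for 30.3% of all genes. Library totals put the median of all genes at -0.26, against -0.02 with TMM, and the share of calls that were higher at 30.8%, against 47.1%.

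The 3 comparisons with strips share the strips libraries, and cell type markers moved in all of them. Macrophage markers rose in 9 of 10 genes in M scaffold, 10 of 10 in M plate and 10 of 10 in P plate, with 157 to 208 CPM in strips. Smooth muscle markers fell in 8, 10 and 8 of 10, enteric neuron markers fell in 6, 8 and 8 of 8, and proliferation markers fell in 7 of 7 in each culture. Endothelial markers rose in 6 of 9 and fell in 2 in M scaffold, rose in 7 and fell in 1 in M plate, and fell in 7 and rose in none in P plate. Red blood cell markers fell in all 5 genes tested in each. Their part in the glycolytic differences was not tested.

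Of 21 citric acid cycle genes 15 fell in M scaffold, 18 in M plate and 13 in P plate relative to strips, and 1, 1 and 2 rose. Mpc2, a subunit of the mitochondrial pyruvate carrier, fell, with log2 fold changes of -1.15 ± 0.13 in M scaffold, -1.44 ± 0.13 in M plate and -1.26 ± 0.13 in P plate, and Fh1, fumarase, fell with -0.95 ± 0.12, -1.09 ± 0.12 and -1.10 ± 0.12. Pcx rose in each, by 3.17 ± 0.20, 2.47 ± 0.20 and 3.17 ± 0.20. Of 20 hypoxia genes 13, 9 and 15 rose and 0, 2 and 0 fell. Adm, adrenomedullin, rose by 4.76 ± 0.71 in M scaffold, 5.68 ± 0.74 in M plate and 4.97 ± 0.71 in P plate, and Egln3 fell by 2.46 ± 0.54 in M plate. Of 7 pentose phosphate genes 3, 3 and 6 rose and 0, 0 and 1 fell, with G6pdx, the entry enzyme, up by 1.26 ± 0.22, 1.07 ± 0.22 and 1.85 ± 0.22. Of the 20 further glycolysis genes 6, 2 and 5 rose and 4, 9 and 7 fell, and of the 13 regulators 3, 0 and 3 rose and 4, 5 and 7 fell. Without M scaffold replicate 3, 1 regulator rose in M scaffold in place of 3, and 2 hypoxia genes and 1 pentose phosphate gene fell. Without P plate replicate 1, 1 citric acid cycle gene rose in P plate in place of 2. Hk3, the hexokinase of myeloid cells, rose by 4.72 ± 0.78 in M scaffold, 4.99 ± 0.78 in M plate and 6.32 ± 0.83 in P plate, beside the macrophage markers named above. The P plate rise of Hk3 was 4.85 without replicate 1 (adjusted p = 6.59e-06). Pdk1, a pyruvate dehydrogenase kinase, rose by 1.91 ± 0.41 in M scaffold, and by 1.23 without replicate 3 (adjusted p = 0.00465). Pdk4 fell by 3.19 ± 0.31 in M plate and fell by 4.06 ± 0.33 in P plate.

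For some steps, the isozyme with the largest mean share of its family's RNA level also differed between groups. Aldoa and Eno1 had the largest mean share of their families in every group, but in strips Eno1 led Eno2 by less than the SD. Shares were computed within each library from levels per kilobase of exon, so they do not depend on library scaling. Slc2a1 made up 66.9% ± 18.9 of the summed Slc2a1, Slc2a3 and Slc2a4 level in M scaffold, 58.8% ± 8.97 in M plate, 92.3% ± 5.67 in P plate and 6.80% ± 0.463 in strips (SD, n = 3). In strips Slc2a4 held 82.5% ± 1.26, against 24.7% ± 19.8 in M scaffold, 26.3% ± 12.01 in M plate and 0.826% ± 0.459 in P plate. The transporter pool thus had different leading genes in strips and in P plate.

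Ldha made up 73.0% ± 9.06 of Ldha and Ldhb together in M scaffold, 71.5% ± 6.28 in M plate, 90.6% ± 2.82 in P plate and 45.5% ± 0.707 in strips. Ldhb was the larger part in strips alone. Among the phosphofructokinases Pfkl held 58.3% ± 8.27 in M scaffold, 51.4% ± 8.53 in M plate, 68.9% ± 1.09 in P plate and 17.2% ± 0.152 in strips, where Pfkm held 56.6% ± 3.11 and Pfkp 26.2% ± 2.97. Eno1 held 57.9% ± 10.1 of enolase in M scaffold, 56.7% ± 4.47 in M plate, 82.2% ± 1.64 in P plate and 36.6% ± 2.36 in strips. In strips Eno2 held 36.1% ± 3.16 and Eno3 27.3% ± 2.58. Eno2 exceeded Eno1 in strips replicate 1 (35.2% against 34.9%) and replicate 3 (39.6% against 35.6%), but not in replicate 2 (33.5% against 39.3%). By the length of the longest transcript in place of all exons, the Ldha share in strips was 55.9%, so which subunit led in strips depends on the length used, and the Eno1 share was 51.6%.

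Hexokinase was led by Hk1, the constitutive form, in strips (86.9% ± 0.553). Hk1 also had the largest mean share in M scaffold (57.1% ± 7.46) and M plate (45.2% ± 4.04), and held 33.0% ± 9.66 in P plate. Hk3 held 23.3% ± 0.620 in M scaffold, 39.8% ± 4.23 in M plate, 34.3% ± 16.7 in P plate and 1.39% ± 0.400 in strips. Hk2 held 18.6% ± 7.60 in M scaffold, 14.5% ± 0.339 in M plate, 32.1% ± 6.77 in P plate and 9.70% ± 1.12 in strips. Which hexokinase led in P plate depends on the length used. By the longest transcript Hk1 held 46.5% there, Hk3 28.5% and Hk2 24.6%. Of the M plate libraries, Hk3 exceeded Hk1 in replicate 3 alone (43.9% against 41.2%). Slc16a3 held 23.6% ± 24.2 of the monocarboxylate transporters Slc16a1, Slc16a3 and Slc16a7 in M scaffold, 7.04% ± 2.25 in M plate, 41.3% ± 7.04 in P plate and 2.96% ± 0.544 in strips. M scaffold replicate 3 alone had 51.0% Slc16a3, against 14.2% and 5.51% in replicates 1 and 2. In exact two-sided permutation tests of the 8 member shares over 6 comparisons, 38 of 48 pairs of groups did not overlap and reached p = 0.1, the smallest p that 3 against 3 allows, and the smallest Benjamini-Hochberg adjusted p was 0.126, so none could pass 0.05.

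**Figure D4:**
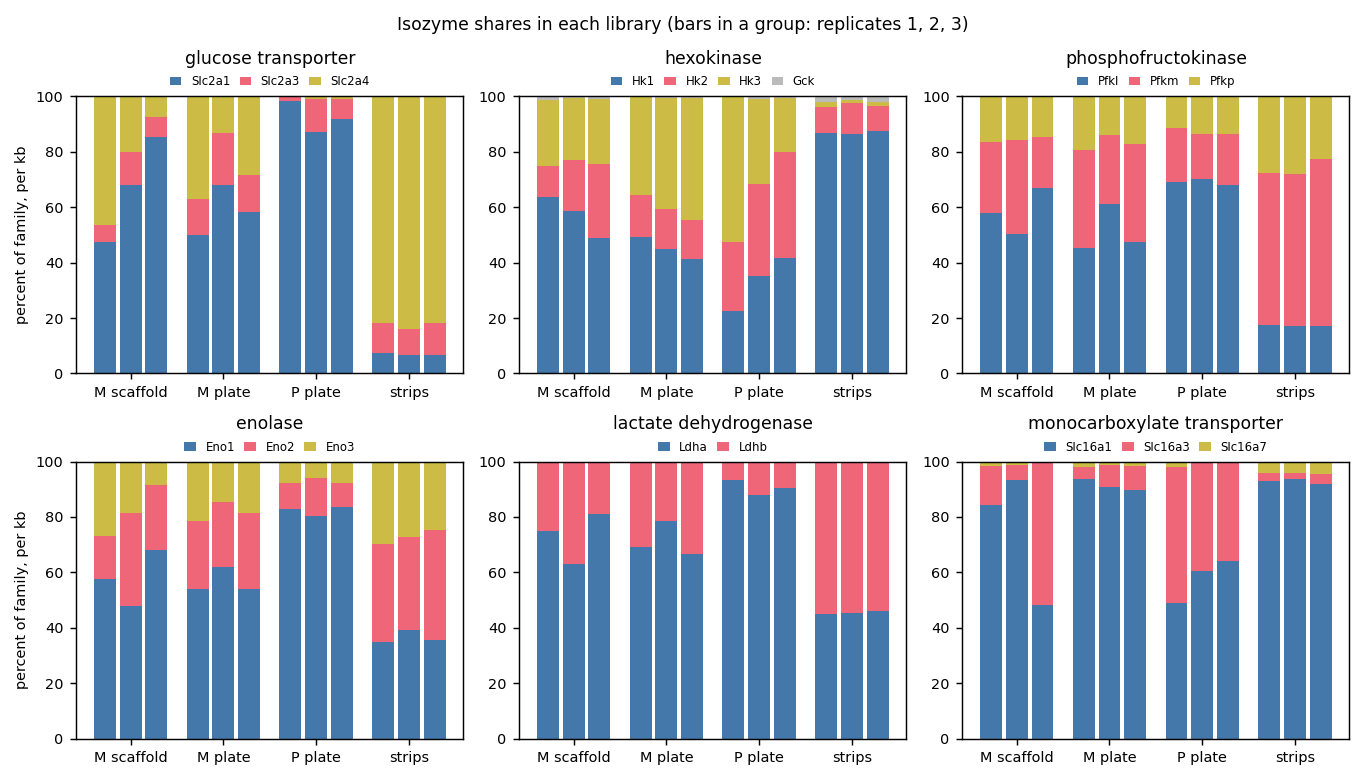
Percent of the summed per-kilobase level (vertical axes, 0 to 100) held by each isozyme in 6 families; each bar is a library, in replicate order within M scaffold, M plate, P plate and strips. Slc2a4 fills most of the strips bars and almost none of the P plate bars in the glucose transporter panel.

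The members also differed in how closely they kept to a common profile. The measure was the root mean square difference over the 12 libraries between a gene's log2 CPM (pseudocount 0.5 CPM) and the mean of the other 9 symbols, each centred on its own mean. Ldha was closest at 0.133, then Eno1 at 0.220 and Pkm at 0.226. Pfkl and Pgk1 followed at 0.319 and 0.321, Hk2 at 0.412 and Aldoa at 0.465. Slc16a3 (1.00) and Slc2a1 (1.04) had the same order of groups with a wider range, and Pfkp was farthest at 1.18.

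Among 17689 genes outside the list, whose median distance was 1.12, the nearest to the mean profile were Pgam1 at 0.105 and Tpi1 at 0.203, 2 further glycolytic enzymes. Then came Gm11110 at 0.268, Mif, a cytokine gene, at 0.280 and Gapdh at 0.285. Mthfd1l, an enzyme of mitochondrial folate metabolism, at 0.298, Pdk1 at 0.307 and Pfkfb3 at 0.307 made up the 8. Dividing each profile by its own SD kept 2 of the 8, Pgam1 and Tpi1, again as the nearest and the second nearest. Pgam1 stood at 11.4, 8.20 and 26.5 CPM in M scaffold, 6.16, 8.96 and 7.45 in M plate, 27.8, 25.3 and 28.4 in P plate, and 4.74, 5.21 and 5.04 in strips, so it too was highest within M scaffold in replicate 3.

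**Figure D5:**
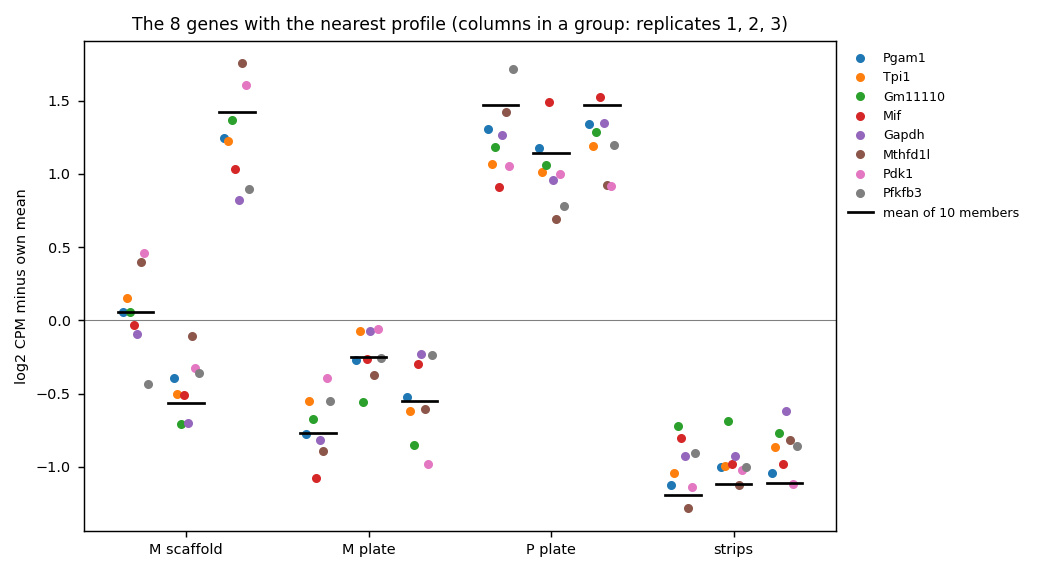
Log2 CPM minus the gene's own mean over 12 libraries (vertical axis) of the 8 genes nearest to the mean profile of the 10 members (black dashes), by library within M scaffold, M plate, P plate and strips. All points lie above 0 in P plate and in M scaffold replicate 3, and all lie below 0 in M plate and strips.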

How the data were processed

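The deposited table holds raw counts per Ensembl gene, 1 column per library. Per the submitters' processing notes, STAR 2.6.0 and the builds GRCm38 and mm10 were used; no source used here gives the counting program, annotation or strand setting. RNA came from Qiashredder and RNeasy kits and libraries from the TruSeq RNA Library Prep Kit v2, per the labels' protocols. The series text speaks of 3 biologically independent replicates per condition and of 2 technical replicates per sample; how the latter were joined is not given. Entries that name no gene were left out of totals. Reads with more than 1 alignment made up 38.7% to 46.7% of all entries per library, those without a feature 2.57% to 4.42% and ambiguous ones 1.83% to 2.24%.

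Symbols, exon lengths and coordinates came from GENCODE M 21. edgeR 4.0.16 (R 4.3.3) was fitted to 17700 genes that passed filterByExpr, with TMM scaling, over all 12 libraries with group as the only term (8 residual degrees of freedom), followed by quasi-likelihood tests and Benjamini-Hochberg adjustment over all genes tested. SE is the absolute log2 fold change divided by the square root of F. Alternatives were DESeq2 1.42.0, limma-voom (limma 3.58.1), other scalings, no filter, 6-library fits, replicate blocks and each library left out. Shares were tested with exact permutation tests (scipy 1.17.1, Python 3.11.15). The test scripts were tested on simulated data. For M scaffold against M plate, 36.4% of genes changed by 1 on the log2 scale were called, and 76.1% of those changed by 2. For M plate against strips these were 24.2% and 68.7%. In those data 66 of the 17700 genes were changed by 1, 67 by 2 and 67 by 3. In the measured libraries 4687 genes were called higher and 5025 lower in M plate against strips. The share of changes missed in the measured libraries was not tested. All 10 symbols are described; of each other pathway list, up to 3 called genes with the largest absolute log2 fold change in a comparison are named, and the 8 nearest profiles. The members and lists were chosen with earlier results of these data known. Same-numbered M scaffold and M plate libraries deviated together from their group means (correlations over genes 0.267, 0.176 and 0.291). Differently numbered libraries of different groups had correlations between -0.215 and 0.135. The labels do not say that a number marks a shared animal or batch. The main test left the numbers out, so its SE and p ignore any such pairing, and blocked fits are given beside it. The other groups' numbers were not taken to pair libraries.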

Additional observations from a re-analysis of the deposited data

How the results depend on the processing

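Under each setting tried, 9 members were higher and 1 lower in P plate than in strips, and no member was called lower in M scaffold than in M plate. Between M plate and strips the 2 members called higher became 0 with library totals only, and 7 both with only the 6 compared libraries and with the replicate block in them. Between M scaffold and P plate the 2 called lower became 1 with no filter, 4 with DESeq2, and 0 with only the 6 compared libraries and with the replicate block in them. Between M scaffold and M plate DESeq2 called 2 higher in place of 0. With 1 library left out, members called higher ran between 0 and 1 for M plate against P plate, 0 and 3 for M scaffold against M plate, 0 and 1 for M scaffold against P plate and 0 and 1 for M plate against strips. Members called lower ran between 6 and 9 for M plate against P plate, 0 and 9 for M scaffold against P plate, 1 and 2 for M plate against strips, and 1 and 2 for M scaffold against strips, where 7 to 9 were higher.

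Log2 fold changes that turned sign lay between -0.36 and 0.09 in the main fit, and none of them was called there. Pgk1 in M plate against strips stood at -0.13 with library totals and ran between -0.19 and 0.24 with 1 library left out. Pfkp in M scaffold against P plate stood at -0.11 with limma-voom and -0.0361 with the replicate block in 6 libraries, and ran between -0.39 and 0.39 with 1 left out (-0.0085 without P plate replicate 1). Pfkl there ran between -1.05 and 0.0272. The second Aldoa gene in M scaffold against M plate stood at -0.0562 with limma-voom and ran between -0.62 and 0.27 (-0.0383 without M plate replicate 2 and -0.0433 without M plate replicate 3). The cause was not tested.

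With the replicate block in the 6 compared libraries 7 members were lower in M plate than in P plate, and 7 were higher in M scaffold than in strips; for groups other than M scaffold and M plate the numbers are not known to pair libraries. Counts over all genes moved more. In M plate against P plate 1868 genes were lower, against 1187 with no filter, 1116 with 6 libraries and 358 with the block in them, where 942 were higher in place of 2532. Without M plate replicate 1, 2 or 3 or P plate replicate 3, 812, 879, 1178 and 1140 were lower. In M scaffold against M plate 271 were higher and 291 lower, against 1146 and 873 with DESeq2, 459 and 545 with limma-voom, 455 and 613 with 6 libraries, 169 lower with the block in all 12, and, with 1 library left out, as few as 7 and 11 (without M plate replicate 2). In M scaffold against P plate 2674 and 1701 became 1419 and 372 with 6 libraries and 811 and 104 with the block in them, and 1036 were lower with no filter, 930 without M scaffold replicate 1 and 912 without M scaffold replicate 2. In P plate against strips 3374 in place of 5390 were higher with the block in 6 libraries. Shares and levels per kilobase depend on the transcript length used. Depth set no limit on the main members, each with at least 9349 counts in all, but the 143 counts of the second Aldoa gene do.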

Other observations

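A pair of genes of liver glucose metabolism had their highest levels in strips replicate 2. Fbp1, a gluconeogenic phosphatase, stood at 3.92, 40.1 and 4.27 CPM in strips replicates 1 to 3, and Pklr, the liver pyruvate kinase, at 2.22, 11.6 and 1.81 CPM. The summed intestinal epithelium markers were 127, 583 and 115 CPM in the same libraries; their part in these levels was not tested. Within P plate, Hk3 held 52.4% of the hexokinase level per kilobase in replicate 1 and 30.9% and 19.5% in replicates 2 and 3, beside summed macrophage markers of 20299, 3717 and 2224 CPM.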
